A study of Mus musculus with 14 samples.

Results

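The effect of irradiation shared by 1 day and 6 weeks was taken from hearts of 14 male C57BL/6J mice that were 8 weeks old when the irradiated ones received 30 Gy of 60Co γ-rays to the anterior chest under anaesthesia, with the rest of the body behind lead. RNA of heart tissue was sequenced from 3 non-irradiated (Control_1d) and 3 irradiated mice (IRR_1d) at 1 day, and from 4 non-irradiated (Control_6w) and 4 irradiated mice (IRR_6w) at 6 weeks, with 1 library per mouse. Which portion of the heart was taken, and whether the controls were anaesthetised or handled like the irradiated mice, were not given in the sources used here, and 1 dose and 1 sex were studied. All 7 irradiated libraries were compared with all 7 controls in a model with an effect of the time point and 1 effect of irradiation. A gene was called when the Benjamini-Hochberg adjusted p was under 0.05, the fold change was above 2 or below 0.5, and the direction was the same at both times. Of the 16034 genes tested, 47 were called, which is 0.293% of them.

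Ionising radiation breaks DNA, and the break signal stabilises the transcription factor p53, which switches on genes that stop the cell cycle, adjust metabolism or start apoptosis. Damaged or displaced nucleic acid can also be sensed in the cytoplasm, after which interferon-stimulated genes are switched on through interferon regulatory factors. In the heart, radiation injury is known for inflammation followed by deposition of extracellular matrix.

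The libraries held 13336746 to 16837265 counts on genes. Summed over 10 cardiomyocyte markers the libraries lay between 4600.4 and 32075 CPM (counts scaled to a common library size), so the label of heart held in all 14, with Control_6w replicate 3 the lowest. That library also held 3349.7 CPM of thymus markers, against at most 92.8 in any other, and 2209 CPM of white fat markers. IRR_6w replicate 1 held 4902 CPM of white fat markers and 1128 CPM of lung epithelium markers, and IRR_1d replicate 3 held 1899.5 CPM of white fat and 2205 CPM of atrial markers. These 3 libraries held the most white fat markers, followed by Control_1d replicate 1 with 256 CPM. Testis germ cell markers summed to 116, 93.7 and 94.8 CPM in Control_6w replicates 1 to 3, against at most 4.73 CPM in any other library. In Control_1d replicate 1, IRR_6w replicate 3 and IRR_6w replicate 4, 39.7, 30.2 and 14.8% of the genes at 2 to 5 CPM elsewhere had 0 counts. Sln, an atrial gene, ran from 0 CPM in 7 of the 14 libraries to 442 CPM in IRR_6w replicate 1. In RNA of bulk tissue, more cells of a type and more RNA per cell cannot be told apart. Sums over cell markers, here and below, and the Sln values are CPM scaled by library totals alone. Other values per library are given as CPM scaled by TMM, a factor that evens out differences in RNA composition, and in the order of the replicates.

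Of the 47 genes, 45 were higher in irradiated hearts (0.281% of all genes tested) and 2 were lower (0.0125%). The groups did not overlap at either time for 43 of the 47, while 0.886% of all genes tested were separated in this way. The call used the same libraries, so this separation and the p-values of each time point describe the 47 and are no support for them. When CPM were scaled by library totals alone, 35 of the 47 were separated, and all 47 were still called. The 4 exceptions under TMM were Irgc1, Disp2, Irf7 and Ces2e. At 1 day 45 of the 47 had an unadjusted p under 0.05, where 2.9% of all genes tested did, and at 6 weeks all 47 did, where 8.81% of all genes did. Each time point taken alone gave fewer calls among the same genes, 3 at 1 day and 16 at 6 weeks at an adjusted p under 0.05 by edgeR, and Zfp365 was the 1 gene that passed both tests with a fold change above 2. Without the 3 libraries that held the most white fat markers (Control_6w replicate 3, IRR_6w replicate 1 and IRR_1d replicate 3) there were 27 calls, 21 of them among the 47, and all 47 kept their direction. Without the 3 libraries in which many genes had 0 counts there were 6 calls, 5 of them among the 47 and all 5 targets of p53. At an unadjusted p under 0.05 with the same limit on the fold change, 2.56% of all genes tested were higher and 1.1% lower.

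**Figure D1:**
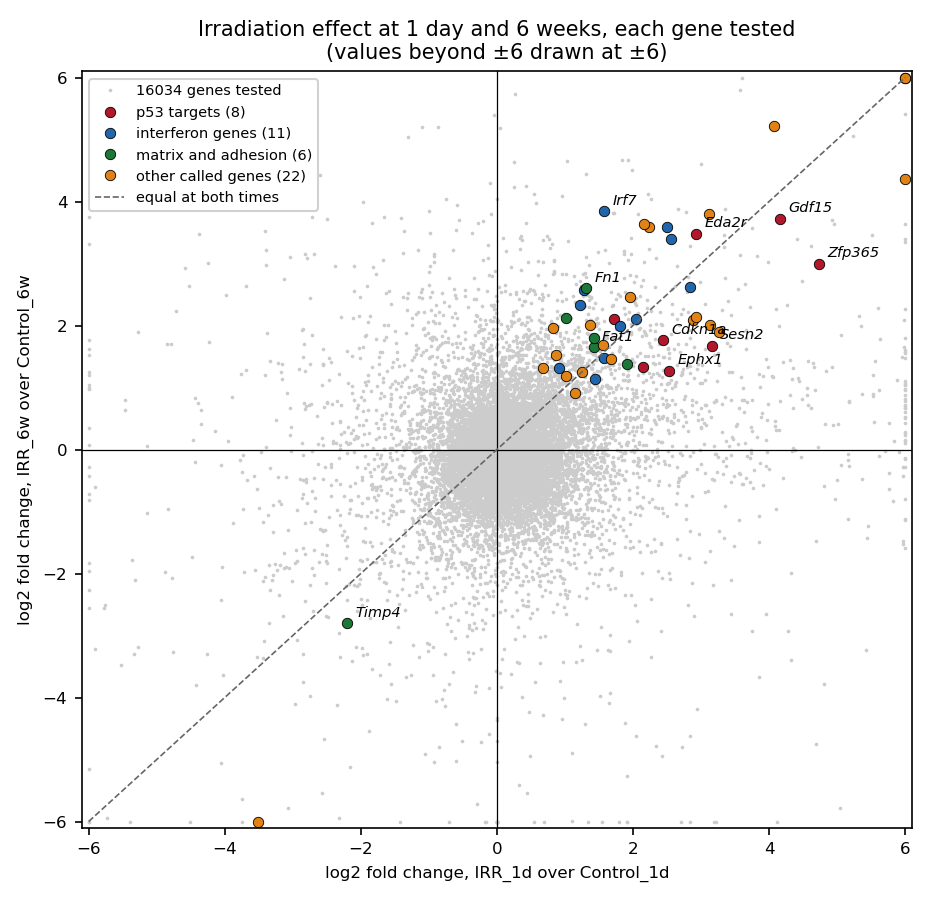
Log2 fold change of irradiated over control hearts at 1 day (horizontal) and at 6 weeks (vertical) for the 16034 genes tested (grey) and the 47 called genes (coloured by group), with the line of equal effects dashed and values beyond 6 in either direction drawn at 6. Of the called genes, 45 lie at the upper right and 2 at the lower left, since the call required the same direction. Across all genes tested the 2 effects correlated at r = 0.182.

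Targets of p53 came first in the order of p, with Zfp365, Eda2r and Zmat3 as the leading genes. All 8 called members of the p53 target lists (Zfp365, Eda2r, Zmat3, Cdkn1a, Sesn2, Gdf15, Ephx1 and Bax) were higher at both times, and no irradiated library overlapped a control library of its time. Their median log2 fold change was 2.73 at 1 day and 1.94 at 6 weeks, values of genes that had passed a 2-fold limit. Over all members tested the medians at 1 day and 6 weeks were lower, at 1.81 and 0.25 for the cell cycle arrest list, 0.90 and 0.39 for apoptosis, 0.69 and 0.58 for metabolism and 0.05 and -0.43 for repair. All 8 were also called without IRR_1d replicate 3, without Control_6w replicate 3 and without IRR_6w replicate 1, each left out in turn, and 7 (all but Ephx1) with the 3 left out together. Without the 3 libraries with many genes at 0, 5 of the 8 were called, and Zmat3, Cdkn1a and Bax were not. Without Control_1d replicate 2, Ephx1 and Bax were not called, and without Control_6w replicate 1 or Control_6w replicate 2, Bax was not.

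Zfp365 (chr10:67886103-67912662 in mm10), which encodes a zinc finger protein tied to genome stability, measured 1.82, 0.905 and 1.54 CPM in Control_1d and 25.9, 34.9 and 54.2 CPM in IRR_1d, then 1.60, 1.15, 3.30 and 2.29 CPM in Control_6w and 11.9, 12.7, 28.0 and 14.6 CPM in IRR_6w. The lowest irradiated heart was above the highest control by more than 3-fold at either time. The pooled log2 fold change was 3.72 ± 0.41 (SE; edgeR adjusted p = 0.00254). Eda2r (chrX:97333840-97377216), a receptor of the TNF receptor family, measured 3.13, 16.9 and 10.8 CPM in Control_1d against 62.4, 100.01 and 70.6 CPM in IRR_1d. At 6 weeks it stood at 10.033, 7.26, 3.98 and 6.9964 CPM in Control_6w and at 32.5, 46.7, 106 and 130.5 CPM in IRR_6w, so that both pairs of groups were apart (log2 fold change 3.24 ± 0.40, edgeR adjusted p = 0.00506).

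Cdkn1a (chr17:29090976-29100727) encodes p21, the inhibitor of cyclin-dependent kinases through which p53 halts the cell cycle. Its level was 31.6, 57.9 and 23.2 CPM in Control_1d and 176, 182 and 254 CPM in IRR_1d, and 70.5, 72.8, 30.1 and 99.4 CPM in Control_6w and 143, 243, 284 and 258 CPM in IRR_6w. The 6-week controls reached higher than the 1-day controls, and all irradiated hearts lay above both (log2 fold change 2.06 ± 0.29, edgeR adjusted p = 0.00999). Cdkn1a is a textbook target of p53. A promoter window of it is shown because that window holds matches to the p53 half-site, so finding them there was fixed by the choice. The windows of Zfp365, Eda2r, Sesn2, Gdf15 and Ephx1 hold 0 matches. The window shown runs from 250 bases before to 50 after the transcription start as RefSeq gives it (GRCm38.p6, chr17:29090729-29091028, plus strand). Capitals mark matches to the p53 half-site, a motif of 10 bases searched by its consensus on both strands.
Cdkn1a: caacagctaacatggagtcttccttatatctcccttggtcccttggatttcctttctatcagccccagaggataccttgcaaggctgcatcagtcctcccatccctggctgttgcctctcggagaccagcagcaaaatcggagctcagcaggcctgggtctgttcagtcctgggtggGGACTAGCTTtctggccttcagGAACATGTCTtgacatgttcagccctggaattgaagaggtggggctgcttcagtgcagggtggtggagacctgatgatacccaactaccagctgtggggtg
The window holds 2 such matches, which start 73 and 51 bases before the transcription start. A second Cdkn1a window in the table, at chr17:29093519-29093818, holds 0 matches. Of the 47 genes, 31 had a promoter in the table, with 41 windows between them. A half-site occurred in 7 of these 41 (17.1%), in 2 of the 9 windows of p53 target members (22.2%) and in 7.06% of the windows of all genes tested. A match describes these letters and no binding was measured.

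Zmat3, an RNA-binding zinc finger protein, measured 13.7, 9.45 and 14.3 CPM in Control_1d, 33.9, 45.3 and 44.9 CPM in IRR_1d, 24.1, 15.0, 10.8 and 15.5 CPM in Control_6w and 44.3, 38.8, 97.7 and 100.4 CPM in IRR_6w. IRR_6w replicates 3 and 4 were the highest, and 38.8 CPM in IRR_6w replicate 2 was still above every control (log2 fold change 1.94 ± 0.26, edgeR adjusted p = 0.00937). Sesn2, a sestrin that restrains mTORC1 under stress, rose from 2.13, 3.72 and 7.31 CPM in Control_1d to 40.5, 30.5 and 46.6 CPM in IRR_1d, and from 4.64, 5.58, 6.66 and 5.25 CPM in Control_6w to 18.7, 18.2, 12.4 and 21.4 CPM in IRR_6w. The 6-week irradiated values were all below the 1-day irradiated ones and above all controls. Gdf15, a secreted stress cytokine of the TGF-beta family, was near the bottom of detection in controls, with 0, 0.905 and 1.15 CPM in Control_1d and 2.0522, 1.53, 0.455 and 1.08 CPM in Control_6w. Irradiated hearts held 12.7, 9.26 and 14.4 CPM at 1 day and 8.85, 25.3, 10.9 and 22.4 CPM at 6 weeks, a pooled log2 fold change of 3.90 ± 0.59 (edgeR adjusted p = 0.0118).

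Ephx1, the microsomal epoxide hydrolase, measured 36.4, 25.9 and 41.8 CPM in Control_1d and 209.8, 148 and 244 CPM in IRR_1d. At 6 weeks it was 25.0, 40.1, 19.4 and 32.6 CPM in Control_6w and 103, 80.9, 43.9 and 54.5 CPM in IRR_6w, where the lowest irradiated and the highest control heart stood close together. Bax, which opens the outer mitochondrial membrane in apoptosis, measured 5.13, 5.03 and 14.5 CPM in Control_1d, 48.0, 33.7 and 28.2 CPM in IRR_1d, 10.8, 13.3, 13.2 and 10.5 CPM in Control_6w and 20.3, 36.7, 38.7 and 24.7 CPM in IRR_6w. Of the exonic bases of Bax, 12.2% are shared on the same strand with Gm45808, so a part of its reads could be assigned to either gene. Over the whole lists, 4 of 14 cell cycle arrest targets, 2 of 16 apoptosis targets and 2 of 13 metabolism targets tested were called. All of these were higher, while 0 of 10 repair targets were called, and 0.293% of all genes tested were. The arrest list gave 6 called genes without Control_6w replicate 3, the library with thymus markers. Mdm2, the ubiquitin ligase that p53 itself induces, measured 96.8, 92.9 and 64.7 CPM in Control_1d, 116, 158 and 131 CPM in IRR_1d, 81.0, 68.8, 95.1 and 77.8 CPM in Control_6w and 68.8, 82.0, 76.1 and 109.7 CPM in IRR_6w. It did not pass the test over both times (log2 fold change 0.32 ± 0.18, edgeR adjusted p = 0.706), with the 6-week groups overlapping.

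**Figure D2:**
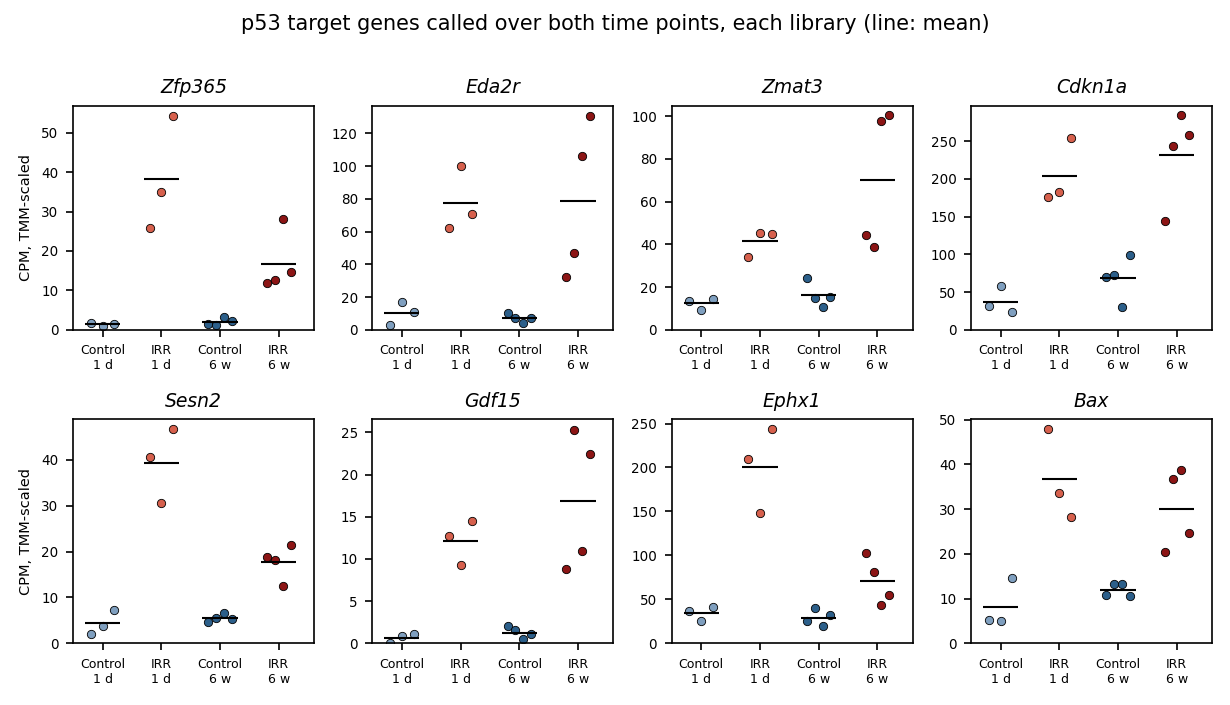
TMM-scaled CPM (vertical, linear from 0) of the 8 called p53 targets in each library of the 4 groups, with the group mean as a line. The irradiated points lie above the control points of the same time in all 8 panels, and for Zfp365, Sesn2, Ephx1 and Bax the irradiated mean is higher at 1 day than at 6 weeks.

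The 11 called genes of the interferon lists formed the largest group, and all were higher. By list they were 7 of 32 antiviral genes, 2 of 17 regulatory factors and nucleic acid sensors and 2 of 16 GTPases. Of all genes tested 0.293% were called. The median log2 fold change of the 11 was 1.58 at 1 day and 2.33 at 6 weeks. These genes had passed a 2-fold limit. Over all members tested the antiviral medians were 0.90 and 2.17. They were 0.36 and 1.29 for the factors and sensors, and 0.85 and 1.13 for the GTPases. Groups did not overlap at either time for 10 of the 11, beside 0.886% of all genes, and the call used the same libraries. At 1 day 1 heart weighed heavily. Without IRR_1d replicate 3 the median of the 11 at 1 day was 0.93, and 6 of the 11 were still called (Ifit3, Lgals3bp, Oasl2, Ifit1, Gbp3 and Rtp4). Without the 3 libraries with the most white fat markers 5 of the 11 were called. Without the 3 libraries with many genes at 0, 0 of the 11 were called, and 0 with the replicate number as a block. IRR_1d replicate 3 is also one of the hearts with the most white fat and atrial markers, and their part in its interferon values was not tested.

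Ifit3 (chr19:34583531-34588731), a tetratricopeptide protein of the antiviral response, measured 23.4, 10.3 and 18.4 CPM in Control_1d and 40.5, 33.9 and 232 CPM in IRR_1d. At 6 weeks the values were 12.3, 14.6, 12.5 and 12.984 CPM in Control_6w and 46.4, 159, 149 and 196 CPM in IRR_6w. IRR_1d replicate 3 stood far above its group, IRR_6w replicate 1 was the lowest of its group, and no groups overlapped (log2 fold change 3.03 ± 0.45, edgeR adjusted p = 0.0116). Without IRR_1d replicate 3 the 1-day log2 fold change of Ifit3 was 1.11 and the pooled one 2.61 (edgeR adjusted p = 0.0371). Ifit1, which binds foreign RNA caps, measured 7.95, 13.5 and 18.2 CPM in Control_1d, 32.8, 33.3 and 217 CPM in IRR_1d, 17.6, 16.7, 36.6 and 15.2 CPM in Control_6w and 49.9, 140.2, 142 and 197 CPM in IRR_6w. Ifit3b measured 6.13, 2.41 and 5.38 CPM, 10.6, 7.11 and 61.4 CPM, 2.96, 3.74, 4.27 and 4.37 CPM and 12.9, 50.3, 42.9 and 79.5 CPM in the same groups. Both followed Ifit3 in which hearts were high. Ifit3 and Ifit3b are close copies of each other, so how their reads were divided is uncertain.

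The promoters of these 3 neighbours are shown because they share a motif of interferon regulatory factors. Sequences are from RefSeq (GRCm38.p6, plus strand, 250 bases before to 50 after the start), at chr19:34583279-34583578 for Ifit3, chr19:34607707-34608006 for Ifit3b and chr19:34640639-34640938 for Ifit1. Capitals mark the motif, GAAA followed by 2 bases of any kind and again GAAA, searched on both strands and found here as its reverse complement.
Ifit3: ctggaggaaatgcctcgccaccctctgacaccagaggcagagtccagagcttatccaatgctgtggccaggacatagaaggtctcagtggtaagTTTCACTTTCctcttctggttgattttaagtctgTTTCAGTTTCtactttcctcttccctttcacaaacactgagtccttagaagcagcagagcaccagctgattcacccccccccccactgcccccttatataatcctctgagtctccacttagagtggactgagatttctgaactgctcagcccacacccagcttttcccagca
Ifit3b: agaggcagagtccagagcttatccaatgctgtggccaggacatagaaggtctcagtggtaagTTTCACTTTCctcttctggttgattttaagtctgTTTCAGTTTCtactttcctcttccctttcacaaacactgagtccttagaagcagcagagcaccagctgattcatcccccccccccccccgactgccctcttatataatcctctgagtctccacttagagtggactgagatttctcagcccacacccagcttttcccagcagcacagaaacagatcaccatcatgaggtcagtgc
Ifit1: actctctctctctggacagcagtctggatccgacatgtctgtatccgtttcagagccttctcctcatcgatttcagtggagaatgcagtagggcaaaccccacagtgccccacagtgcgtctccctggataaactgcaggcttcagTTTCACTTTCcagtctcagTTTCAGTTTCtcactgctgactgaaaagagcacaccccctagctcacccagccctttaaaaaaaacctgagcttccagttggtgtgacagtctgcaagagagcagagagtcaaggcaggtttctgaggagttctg
Each window holds 2 matches, TTTCACTTTC and TTTCAGTTTC in that order. They start 156 and 122 bases before the start in Ifit3, 188 and 154 before it in Ifit3b, and 104 and 85 before it in Ifit1. The motif occurred in 5 of the 9 windows of the interferon members (55.6%), in 0 of the 9 windows of the p53 target members and in 3.21% of the windows of all genes tested. Of the 41 windows of all called genes 6 held it (14.6%). The one outside the interferon lists was that of Gm12250, with 2 matches.

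Lgals3bp, a secreted galectin-3-binding glycoprotein, measured 47.4, 47.1 and 67.9 CPM in Control_1d, 88.3, 77.0 and 231 CPM in IRR_1d, 33.1, 37.4, 42.7 and 37.7 CPM in Control_6w and 155, 201, 255 and 287 CPM in IRR_6w. The groups were narrowly apart at 1 day and widely apart at 6 weeks (log2 fold change 1.29 ± 0.38 and 2.57 ± 0.35). Oasl2, a 2'-5' oligoadenylate synthetase-like protein, measured 18.4, 24.3 and 26.4 CPM in Control_1d, 42.5, 48.4 and 149.9 CPM in IRR_1d, 10.3, 13.7, 28.5 and 19.0 CPM in Control_6w and 52.7, 74.5, 63.9 and 92.5 CPM in IRR_6w (pooled log2 fold change 1.91 ± 0.30, edgeR adjusted p = 0.0133). Ifi204, a sensor of cytosolic DNA, measured 7.32, 12.9 and 12.1 CPM in Control_1d, 12.998, 20.1 and 42.0 CPM in IRR_1d, 10.5, 12.1, 10.2 and 12.9 CPM in Control_6w and 34.2, 58.7, 74.4 and 63.1 CPM in IRR_6w. Its 1-day groups were separated by a gap of less than 1 CPM, and without IRR_1d replicate 3 it was not called (edgeR adjusted p = 0.0596). Ifi204 also lost its call without Control_6w replicate 1 and without Control_6w replicate 2, each left out in turn.

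Irf7, the interferon regulatory factor that amplifies the type I response, measured 11.6, 11.2 and 28.0 CPM in Control_1d and 24.3, 23.7 and 104 CPM in IRR_1d, and its 1-day groups overlapped. At 6 weeks they were far apart, at 8.74, 14.4, 9.27 and 10.8 CPM in Control_6w and 56.6, 239.7, 142 and 185 CPM in IRR_6w. Irf7 was called in 5 of the 14 fits that left out 1 library. The remaining interferon members were Gbp3, a guanylate-binding protein, Irgm2, an immunity-related GTPase, Rtp4, an interferon-induced transporter of receptors, and Ifi27l2a. Their pooled log2 fold changes were 1.52, 1.15, 1.27 and 2.08. Gbp3, Irgm2, Rtp4 and Ifi27l2a were called in 11, 8, 10 and 5 of the 14 fits that left out 1 library. Ifi27l2a had the highest level per length of all 47, with a mean of 31.1 FPKM, counts scaled by depth and gene length, in the 7 controls and 132 FPKM in the 7 irradiated hearts, from the deposited gene lengths. Rtp4 shares 13.9% of its exonic bases on the same strand with Gm45338, and Irgm2 shares 4.4% with Igtp.

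The antiviral list as a whole lay higher: 30 of its 32 members tested were higher at both times, against 26.5% of all genes. Of the 32, 7 were called, where 0.293% of all genes were. An unadjusted p under 0.05 was reached by 30 of the 32, all higher, beside 5.32% of all genes, and 11 had groups that were apart at both times, beside 0.761%. Its median log2 fold change was 1.87 over both times, beside -0.03 for all genes tested, and 1.64 without IRR_1d replicate 3. Not every antiviral gene passed. Cmpk2, a mitochondrial nucleotide kinase, measured 13.5, 17.8 and 25.0 CPM in Control_1d, 20.9, 22.2 and 48.3 CPM in IRR_1d, 44.4, 31.6, 15.6 and 28.5 CPM in Control_6w and 18.2, 64.3, 114 and 106 CPM in IRR_6w. Its groups overlapped at both times (log2 fold change 1.06 ± 0.37, edgeR adjusted p = 0.365). Dhx58, an RNA sensor of the RIG-I family, had a log2 fold change of 1.98 ± 0.44 and did not pass either (edgeR adjusted p = 0.0846).

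**Figure D3:**
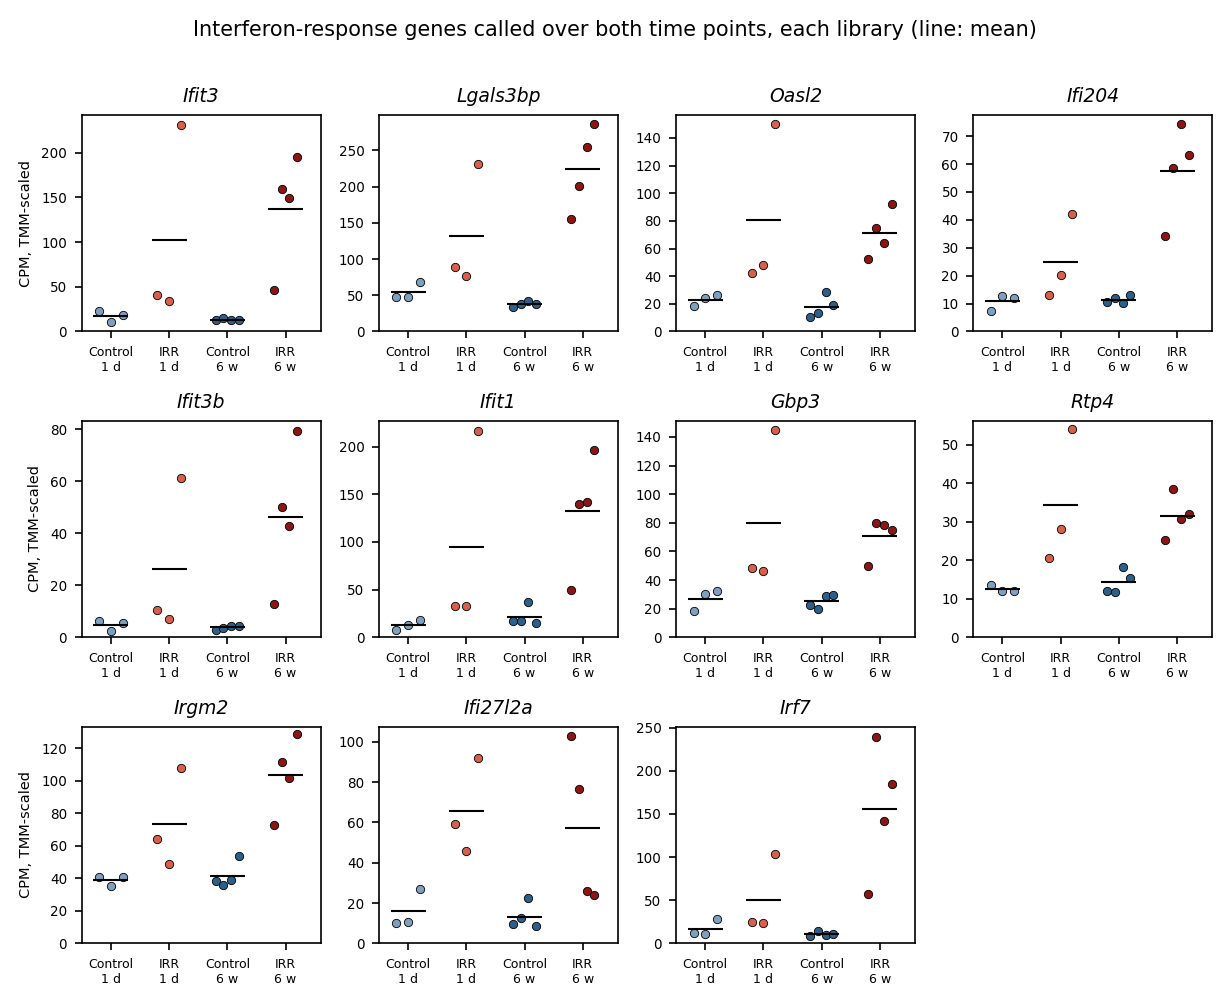
TMM-scaled CPM (vertical, linear from 0) of the 11 called interferon-stimulated genes in each library of the 4 groups, with the group mean as a line. IRR_1d replicate 3 is the highest of its group in all 11 panels, and IRR_6w replicate 1 is the lowest of its group in all panels but that of Ifi27l2a, where it is the highest.

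Genes of the extracellular matrix and of cell adhesion gave 6 calls, 5 higher and 1 lower. The list of matrix proteases, TIMPs and lysyl oxidases had 1 gene called higher and 1 called lower of 17 tested. That of cadherins and protocadherins had 1 called of 24, where 0.293% of all genes tested were called. Timp4 (chr6:115241892-115252205), an inhibitor of matrix metalloproteinases that is prominent in the heart, was the lower one. It measured 57.7, 47.5 and 44.3 CPM in Control_1d and 8.82, 16.5 and 7.32 CPM in IRR_1d, and 168, 112, 29.2 and 90.8 CPM in Control_6w and 18.3, 19.9, 3.87 and 15.3 CPM in IRR_6w. Every irradiated heart was below 20 CPM and every control above 29, with Control_6w replicate 3 the lowest control (log2 fold change -2.54 ± 0.40, edgeR adjusted p = 0.0129). Mmp2, a gelatinase and one of the enzymes that such inhibitors block, went the other way. It measured 71.3, 64.4 and 108 CPM in Control_1d, 289, 234 and 393 CPM in IRR_1d, 78.3, 83.2, 32.0 and 103 CPM in Control_6w and 149.5, 171, 178 and 272 CPM in IRR_6w (log2 fold change 1.61 ± 0.26, edgeR adjusted p = 0.0139).

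Fn1, fibronectin, measured 79.4, 86.1 and 112 CPM in Control_1d and 155, 127 and 407 CPM in IRR_1d. At 6 weeks it measured 73.9, 86.4, 65.8 and 136 CPM in Control_6w and 655, 365, 689 and 489 CPM in IRR_6w. The 1-day gap was small in replicates 1 and 2, and without IRR_1d replicate 3 the 1-day log2 fold change was 0.61 and the gene was not called (edgeR adjusted p = 0.0609). Fn1 also lost its call without Control_6w replicate 1 and without Control_6w replicate 2, each left out in turn. Fndc1, a protein with fibronectin type III repeats, measured 37.1, 20.8 and 31.7 CPM in Control_1d, 57.5, 46.3 and 77.7 CPM in IRR_1d, 21.7, 20.9, 11.2 and 18.5 CPM in Control_6w and 98.5, 53.8, 90.2 and 71.7 CPM in IRR_6w. Fat1, an atypical cadherin, measured 37.0, 35.1 and 42.5 CPM, 86.4, 75.3 and 145 CPM, 16.9, 31.8, 30.0 and 46.6 CPM and 108, 78.3, 117 and 90.7 CPM in the same groups. Both were called in each of the 14 fits that left out 1 library. Col14a1, a collagen that associates with fibrils, measured 42.4, 27.0 and 30.5 CPM in Control_1d, 62.4, 43.3 and 163 CPM in IRR_1d, 20.1, 18.4, 25.5 and 25.0 CPM in Control_6w and 111, 49.4, 86.6 and 63.3 CPM in IRR_6w. Without IRR_1d replicate 3 it was not called (edgeR adjusted p = 0.0609). Its call was also lost without Control_1d replicate 2, Control_6w replicate 1 or Control_6w replicate 2, each left out in turn. Of the 6 matrix and adhesion genes, 4 were called without the 3 libraries with the most white fat markers (Fat1, Timp4, Fndc1 and Mmp2). Without the 3 libraries with many genes at 0, 0 of the 6 were called, and 1 (Timp4) with the replicate number as a block.

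Of the 18 matricellular and adhesive glycoproteins tested, 17 were higher at both times, where 26.5% of all genes were, and 2 were called, where 0.293% of all genes were. The median log2 fold change of that list was 1.02 at 1 day and 0.996 at 6 weeks. The interstitial matrix list had medians of 0.05 at 1 day and 1.14 at 6 weeks, with 1 of 18 called, and the difference between the lists was not tested. Summed fibroblast markers, 10 genes in CPM scaled by library totals alone, ran from 2016 to 3923 in Control_1d and 2852 to 5847 in IRR_1d. At 6 weeks the sums ran from 1564 to 3843 in Control_6w and 3115 to 4594 in IRR_6w, and the groups overlapped at both times. Taken singly, 7 of the 10 were higher at both times, and 5 of the 10 were higher at an unadjusted p under 0.05 (edgeR), beside 5.32% of all genes, while 0 were called. None of the 10 stood at 0 in all libraries, and their part in the matrix values was not tested. Thbs1, thrombospondin 1, had a log2 fold change of 1.98 ± 0.51 and did not pass (edgeR adjusted p = 0.170).

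Among the genes outside these groups Siglec1 (chr2:131069220-131086765), a sialic acid receptor of macrophages, followed Zmat3 in the order of p. It measured 8.01, 7.64 and 13.3 CPM in Control_1d and 44.0, 30.5 and 62.1 CPM in IRR_1d, and 2.36, 6.27, 1.65 and 8.41 CPM in Control_6w and 28.7, 51.3, 61.5 and 83.3 CPM in IRR_6w. Irradiated hearts were at or above 28.7 CPM and controls at or below 13.3 (log2 fold change 3.01 ± 0.42, edgeR adjusted p = 0.00999). It was the 1 called gene of 29 macrophage and monocyte genes tested, of which 19 were higher at both times, beside 0.293% and 26.5% of all genes. C4b, a component of the classical complement pathway, measured 34.0, 29.4 and 20.3 CPM in Control_1d, 69.2, 43.0 and 260.5 CPM in IRR_1d, 17.3, 17.3, 22.9 and 37.4 CPM in Control_6w and 562, 188, 217 and 219 CPM in IRR_6w. The highest heart of each irradiated group was one of those with the most white fat markers, and without IRR_1d replicate 3 and IRR_6w replicate 1, each left out in turn, C4b kept its call (edgeR adjusted p = 0.0486 and 0.0109). Without both of them and Control_6w replicate 3 it lost the call (log2 fold change 2.23, edgeR adjusted p = 0.0608). Of the 16 complement genes tested, 13 were higher at both times and C4b alone was called, beside the same shares of all genes.

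Serpine2, protease nexin 1, measured 68.6, 41.2 and 37.5 CPM in Control_1d, 122, 102 and 210.0 CPM in IRR_1d, 48.9, 38.1, 37.9 and 37.5 CPM in Control_6w and 80.2, 87.0, 211 and 146 CPM in IRR_6w. Its groups were apart at both times, and it was called in all 14 fits that left out 1 library. Serpina3n, an acute phase inhibitor, measured 16.5, 20.2 and 12.5 CPM in Control_1d, 61.5, 58.5 and 355 CPM in IRR_1d, 9.88, 10.6, 5.86 and 17.9 CPM in Control_6w and 78.7, 36.1, 22.5 and 28.2 CPM in IRR_6w. The value of IRR_1d replicate 3 was over 5 times that of its group mates, and without it the log2 fold change was 1.89 (edgeR adjusted p = 0.0371). Serpina3n was called in 5 of the 14 fits that left out 1 library, and its edgeR adjusted p ranged from 0.00209 to 0.160 over the alternatives, while DESeq2 gave it no adjusted p. Pros1, protein S, had a log2 fold change of 1.11 ± 0.22 (edgeR adjusted p = 0.0425) and was called in 4 of those 14 fits. Of the 16 other coagulation and fibrinolysis genes tested 0 were called, where 0.293% of all genes were.

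Angpt2, the antagonist of the Tie2 receptor on endothelium, measured 5.95, 3.92 and 4.85 CPM in Control_1d, 7.46, 6.86 and 11.9 CPM in IRR_1d, 5.17, 8.86, 4.49 and 7.27 CPM in Control_6w and 17.6, 33.9, 20.8 and 27.7 CPM in IRR_6w, with a wider gap at 6 weeks. Angpt2 was called in 3 of the 14 fits that left out 1 library. The other genes of this paragraph lay outside the lists and were named after their values were seen. So were Ifit1, Ifit3b, Rtp4, Ifi27l2a, Serpina3n, Pros1 and the near-zero genes Ano3, Celf5, Disp2 and Serpinb1c. Sfrp1, a secreted inhibitor of Wnt signalling, measured 10.4, 22.8 and 25.5 CPM in Control_1d, 36.3, 32.6 and 71.3 CPM in IRR_1d, 24.2, 23.4, 30.2 and 26.4 CPM in Control_6w and 65.9, 50.5, 72.7 and 59.0 CPM in IRR_6w. Its log2 fold change was 1.26 at 1 day and 1.25 at 6 weeks. Sfrp1 was called in 6 of the 14 fits that left out 1 library. Piezo1, a mechanically gated cation channel, had, with Gm37795, the largest adjusted p of the 47, 0.0473 (edgeR), and 24.6% of its exonic bases lie opposite exons of Ctu2. Piezo1 was called in 2 of the 14 fits that left out 1 library. Capg, an actin capping protein, Exoc4, a subunit of the exocyst, and Ces2e, a carboxylesterase, had log2 fold changes of 1.73, 1.012 and 2.48. Tmem176a, Pamr1, Ahnak2, Gm12250 and Gm4951 had log2 fold changes of 1.25, 2.42, 1.55, 3.52 and 2.25. Ces2e and Gm4951 were each called in 3 of the 14 fits that left out 1 library. Capg, Exoc4, Tmem176a, Pamr1, Ahnak2 and Gm12250 were called in 9, 7, 6, 7, 6 and 5 of those fits. Gm37795 (chr4:150068539-150070997) is an unclassified transcript that shares 0.7% of its exonic bases with the microRNA gene Mir34a. It measured 0.313, 0.302 and 0.385 CPM in Control_1d, 2.77, 3.51 and 2.64 CPM in IRR_1d, 0.836, 0.688, 0.398 and 0.807 CPM in Control_6w and 4.02, 2.04, 2.73 and 2.28 CPM in IRR_6w. Its groups were apart at both times, but it was called in 0 of the 14 fits that left out 1 library.

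In 5 of the called genes 1 side was close to 0, so counts say more than fold changes. Ano3, of the anoctamin family, had 19 counts in the 7 control libraries together and 704 in the 7 irradiated ones. Celf5, an RNA-binding protein, had 5 and 364 counts, Disp2 2 and 416, and Serpinb1c 1 and 171. All 4 were near or below detection in the controls. Ano3, Celf5, Disp2 and Serpinb1c were called in 9, 3, 6 and 5 of the 14 fits that left out 1 library. The irradiated totals were uneven: Disp2 had 1, 0 and 25 counts in IRR_1d and 134, 33, 196 and 27 in IRR_6w, and Serpinb1c had 9, 13 and 6 in IRR_1d and 2, 6, 33 and 102 in IRR_6w. Irgc1, an immunity-related GTPase of the testis, was the second gene called lower and went against the pattern of the rest. Its counts were 0, 3 and 0 in Control_1d and 0, 0 and 0 in IRR_1d, then 614, 257, 207 and 0 in Control_6w and 0, 1, 0 and 0 in IRR_6w. Apart from 3 counts in Control_1d and 1 in IRR_6w it was thus measured in 3 controls of 1 time point, the groups overlapped at both times, and the exact permutation p was 0.0714 (two-sided, labels exchanged within each time in 1400 assignments, smallest possible p 0.00143). Those 3 controls also held the testis germ cell transcript Oaz3 at 25.2, 36.7, 23.1 and 0.202 CPM in Control_6w, in the order of replicates, against at most 0.120 CPM in the irradiated libraries.

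The estimated sizes of the effects differed between the times for some members, at an unadjusted p only. The effect was larger at 6 weeks for 28 of the 47 and larger at 1 day for 19. This balance rests in part on 1 heart, since the median log2 fold change of the 47 was 1.91 at 1 day and 2.01 at 6 weeks, and without IRR_1d replicate 3 it was 1.11 at 1 day and 2.01 at 6 weeks. A test of the change in effect gave an unadjusted p under 0.05 for 9 of the 47, beside 3.14% of all genes tested, and an adjusted p under 0.05 for 0 of the 16034 genes (504 at an unadjusted p under 0.05, edgeR). Larger at 1 day were Zfp365 (log2 fold change 4.73 at 1 day and 2.9996 at 6 weeks), Sesn2 (3.16 and 1.67), Ephx1 (2.53 and 1.27) and Celf5. Larger at 6 weeks were Irf7 (1.58 and 3.85), Lgals3bp (1.29 and 2.57), Fn1 (1.31 and 2.60), Fndc1 (1.02 and 2.12) and Angpt2 (0.83 and 1.95).

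**Figure D4:**
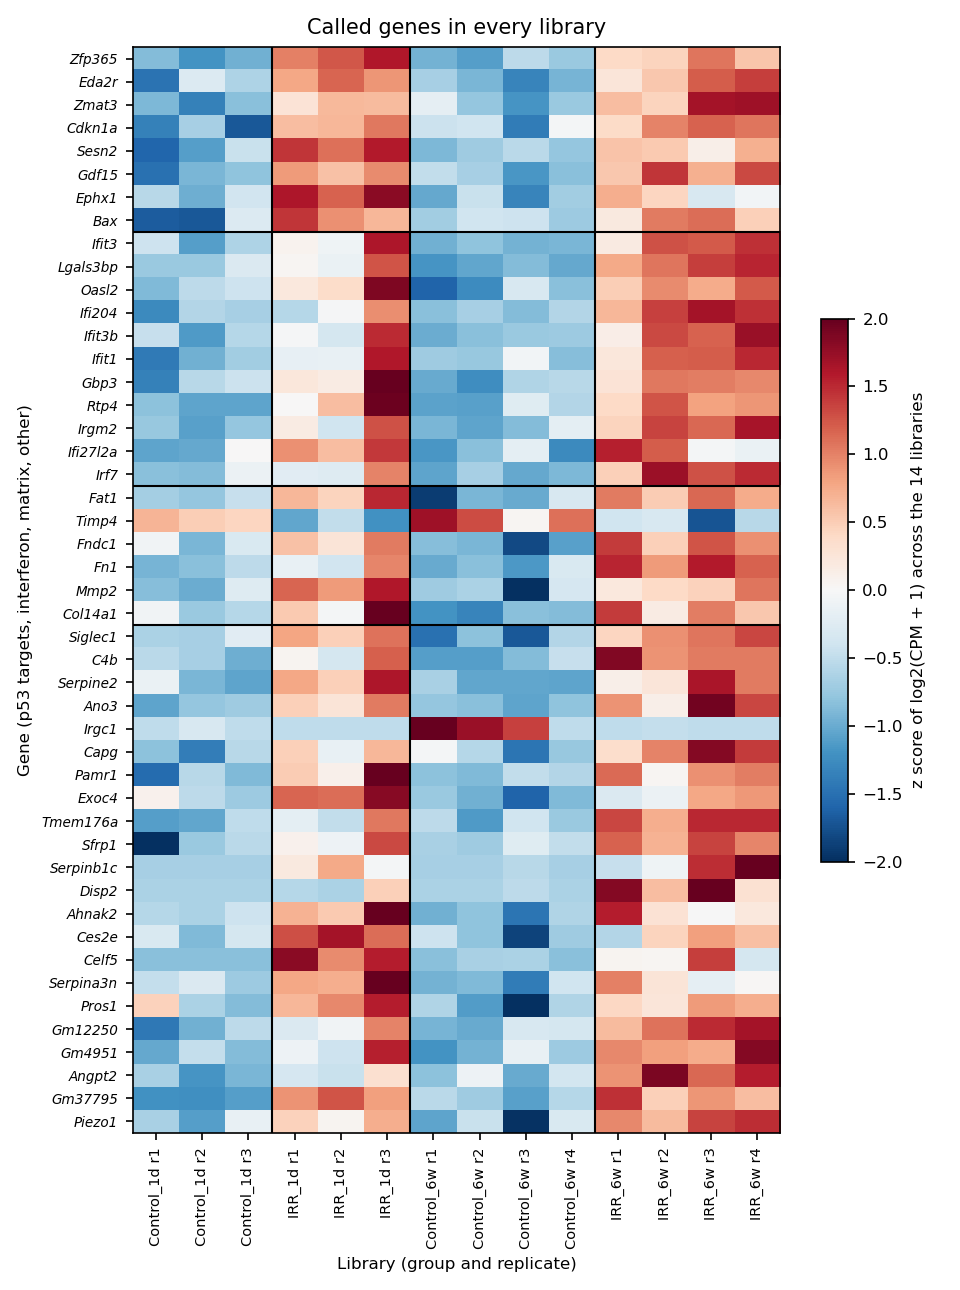
Log2(CPM + 1) of the 47 called genes (rows) in the 14 libraries (columns), as z scores across libraries from blue (low) to red (high) with the colour held beyond 2, and with genes grouped as p53 targets, interferon, matrix and other. The 7 irradiated columns are red for most genes, IRR_1d replicate 3 is the reddest of its group in the interferon block, and the Irgc1 row is red in 3 columns of Control_6w only.

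Within the groups of libraries the members did not all vary together. Across the 14 libraries, after removal of the 4 group means, pairs of interferon genes correlated at a median r of 0.77 (55 pairs), while pairs of p53 targets correlated at 0.10 (28 pairs) and pairs of matrix genes at 0.35 (15 pairs). Pairs of a p53 target with an interferon gene had a median r of 0.22 (88 pairs). These are descriptions over shared libraries, in which depth and tissue content are common to all genes. Averaged over the p53 targets as z scores, the 3 IRR_1d hearts stood close to each other at 1.00, 0.94 and 1.15. Averaged over the interferon genes they stood at 0.06, 0.03 and 1.495, with replicate 3 apart, while the IRR_6w hearts stood at 0.51, 1.25, 1.06 and 1.25.

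The level and length of the members lay near those of all genes. Their median control level was 13.6 CPM, beside 14.1 CPM for all genes tested, their median length was 3690 bases beside 4032, and they lay on 18 chromosomes. Of the 47, 45 are annotated as protein coding in the deposited table. The level changed between the 2 control groups at an unadjusted p under 0.05 for 3 of them (Irgc1, Fndc1 and Cdkn1a), where 5.28% of all genes tested did.

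Other pathways were followed through lists of genes chosen for this tissue and treatment. The list of cell cycle and replication genes had the lowest median of the 36, -1.17. Of its 34 genes, 28 were lower at both times, against 27.6% of all genes tested, and 0 were called, against 0.293%. At an unadjusted p under 0.05 (edgeR) 12 of the 34 were lower, beside 2.9% of all genes. Without Control_6w replicate 3 that median was 0.01. Mki67, the proliferation marker, measured 9.08, 10.5 and 19.9 CPM in Control_1d, 1.42, 1.29 and 1.72 CPM in IRR_1d, 9.04, 8.71, 693 and 14.3 CPM in Control_6w and 23.8, 47.9, 16.7 and 24.5 CPM in IRR_6w. It was lower in every 1-day irradiated heart than in any control of its time, while at 6 weeks the irradiated hearts were above all controls but replicate 3, which holds thymus markers. Heat shock chaperones had 9 of 15 genes lower at both times and 0 called, beside the same shares of all genes. Of these chaperones 4 had separated groups at both times, beside 0.125% of all genes. One was Dnaja1, a DNAJ co-chaperone, at 112, 129 and 106 CPM in Control_1d, 69.8, 77.5 and 90.4 CPM in IRR_1d, 309, 329.9, 417 and 261 CPM in Control_6w and 250.03, 242, 182 and 243 CPM in IRR_6w (log2 fold change -0.53 ± 0.15, edgeR adjusted p = 0.238).

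Genes of muscle contraction and energy supply gave 0 calls, where 0.293% of all genes tested were called. Of 20 sarcomere genes 14 were lower at both times, of 34 nuclear-encoded respiratory chain genes 20, and of 25 fatty acid genes 13. The share of all genes was 27.6%, and the list medians were -0.42, -0.35 and -0.29. The 13 mitochondrial genome transcripts had a median of -0.60, with 7 lower at both times. The 10 cardiomyocyte markers had a median of -0.43, with 6 lower at both times. Their sums were lowest in Control_6w replicate 3 and IRR_6w replicate 1, at 4600 and 9724 CPM, and their part in these values was not tested. Slc2a1, the glucose transporter GLUT1, had groups that did not overlap at either time but did not pass the test (log2 fold change 1.19 ± 0.31, edgeR adjusted p = 0.175). Antigen presentation by MHC class I had 13 of 16 genes higher at both times, beside 26.5% of all genes, and 0 called. H2-D1 had a log2 fold change of 0.83 ± 0.19 (edgeR adjusted p = 0.0947). Beside 0.293% of all genes tested, 0 of 22 chemokines and their receptors were called. The smallest p among them was that of Ccl8, with a log2 fold change of 2.91 ± 0.61 (edgeR adjusted p = 0.0645), followed by Ccl12 with 2.48 ± 0.55 (edgeR adjusted p = 0.0846).

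**Figure D5:**
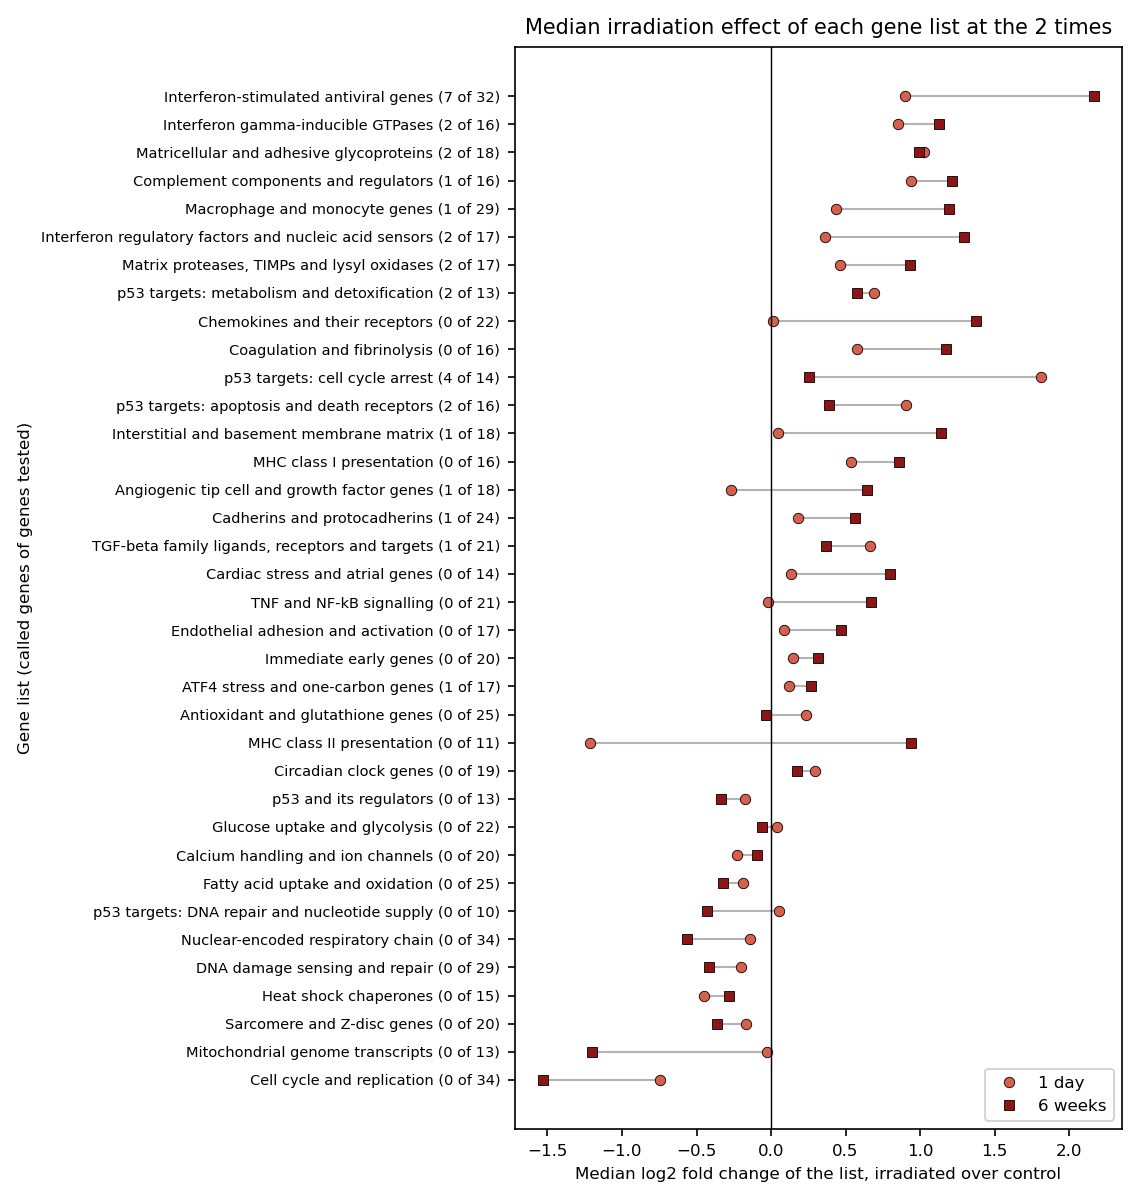
Median log2 fold change of each of the 36 gene lists at 1 day (circles) and at 6 weeks (squares), ordered by the median over both times, with called genes of genes tested in brackets. The antiviral list is at the top and the cell cycle list at the bottom, and the MHC class II list has its 2 medians on opposite sides of 0, at -1.22 and 0.94.

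A second look used time points that share no library. In a fit of the 1-day libraries alone, 427 genes had an unadjusted p under 0.05 and a fold change above 2 or below 0.5 (2.66% of the genes tested). In the separate fit of the 6-week libraries, 313 of the 427 (73.3%) moved in the same direction, where 54.3% of all genes tested did, and 88 (20.6%) did so with an unadjusted p under 0.05, where 4.95% of all genes did. The 273 genes chosen as higher at 1 day were higher at 6 weeks in 83.5% of cases, against 48.2% of all genes higher at 1 day. The 154 chosen as lower were lower at 6 weeks in 55.2% of cases, below the 62.1% of all genes lower at 1 day. Genes are not independent of each other, so these shares carry no error. Without IRR_1d replicate 3, the share was 55.5%, with 47.9% for all genes. Without IRR_6w replicate 1 it was 56.9%, with 48.1% for all genes, and without these and Control_6w replicate 3 it was 45.5%, where 43.5% of all genes kept their direction. In that last fit 48.0% of the 75 genes chosen as higher were also higher at 6 weeks with an unadjusted p under 0.05, against 6.66% of all genes higher at 1 day. Of the 101 genes chosen as lower in the same fit, 21.8% were lower at 6 weeks, below the 47.4% of all genes lower at 1 day.

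Of the 427 genes, 76 had a 2-fold change and an unadjusted p under 0.05 in the same direction in both separate fits, 68 higher and 8 lower, and 40 of the 76 were also among the 47 called over both times. Timp4 was the lower gene with the smallest 1-day p among the 8. The others were Rgcc, Car4, Hmgb2, Vwa3a, Gm12002 and the T cell genes Cd8a and Trbc1. Of these, Rgcc, Car4, Hmgb2, Vwa3a and Gm12002 were named after their values were seen. Cd8a measured 1.14, 0.764, 709 and 5.31 CPM in Control_6w and 6.03, 2.71, 3.62 and 7.78 CPM in IRR_6w, so the high mean of Control_6w came from replicate 3.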

How the data were processed

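Reads from heart tissue RNA were, by the submitters' processing notes and the study's methods, checked with FastQC 0.11.8, trimmed with Trim Galore 0.6.1, aligned to mm10 with STAR 2.5.0a and counted with HTSeq. The authors deposited whole-number counts per gene, with no normalization. The annotation release and whether counting used strand were not given in the sources used here, so a gene and an antisense partner may share reads.

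Counts were analysed with R 4.3.3 and edgeR 4.0.16 (filterByExpr, TMM, quasi-likelihood F test, two-sided, Benjamini-Hochberg over 16034 of 54532 genes), with time point and irradiation as terms. Effects at each time came from a model of 4 groups. CPM and FPKM were computed from the counts and deposited lengths. On simulated data, 71% of 200 genes changed by 2 on the log2 scale were recovered, and 5% of those changed by 1. Genes were named by a rule. It took up to 14 called higher and 8 called lower with the smallest p and groups apart at both times. Where under 3 of a direction had groups apart, up to 5 called genes of that direction with the smallest p were taken. Each list gave up to 3 called members or, where none was called, up to 2 with the smallest p. The rule also took genes that the study's text names. Genes outside it are marked as named after their values were seen. The members and lists were chosen with earlier results of these data known. DESeq2 1.42.0, limma 3.58.1, other scalings and filters, and left-out libraries were tried as alternatives. Promoters came from RefSeq tables (GRCm38.p6).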

Additional observations from a re-analysis of the deposited data

Results flagged for a closer look

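In groups of 4 libraries, 7 of the 94 looked at (47 genes at 6 weeks) held 1 library far from the other 3, where chance gives about 1 in 20. C4b stood at 562 CPM in IRR_6w replicate 1, against 188 to 219 CPM in the other hearts of that group. Gbp3 was low in the same heart, at 49.7 CPM against 75.1 to 79.7 CPM. Ifit1 stood at 36.6 CPM in Control_6w replicate 3, against 15.2 to 17.6 CPM in the other controls. Serpine2 was high in Control_6w replicate 1, at 48.9 CPM against 37.5 to 38.1 CPM. The other 3 were genes near 0, each above 0 in 1 library only: Irgc1 at 0.0601 CPM in IRR_6w replicate 2, Serpinb1c at 0.0569 CPM and Disp2 at 0.114 CPM in Control_6w replicate 3.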

How the results depend on the processing

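The 47 calls became 72 with library totals in place of TMM (all 47 among them), 82 without a filter on low counts (46 of the 47), 216 by DESeq2 (45 of the 47), 188 by limma voom with sample weights (42 of the 47) and 586 at an unadjusted p. They fell to 27 without the 3 libraries with the most white fat markers and to 6 without the 3 libraries with many genes at 0. Under library totals the median of all genes tested moved from -0.03 to 0.13 on the log2 scale. Leaving out 1 library at a time gave 17 to 59 calls, with 17 without Control_1d replicate 2, 24 without IRR_1d replicate 3, 20 without Control_6w replicate 1, 17 without Control_6w replicate 2 and 30 without IRR_6w replicate 4. In each of these 14 fits 15 genes were called, Zfp365, Eda2r, Zmat3, Siglec1, Cdkn1a, Fat1, Sesn2, Ifit3, Lgals3bp, Gdf15, C4b, Serpine2, Timp4, Fndc1 and Oasl2. The replicate numbers did not pair the samples, since same-numbered libraries correlated between -0.405 and 0.508. With the replicate number as a block 4 genes were called (Zfp365, Eda2r, Siglec1 and Timp4), and the share of 1-day genes with the same direction at 6 weeks was 62.3% in that paired fit (all genes 50.2%).

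That share, 73.3% beside 54.3% of all genes tested, was 67.6% without a filter (all genes 42.0%), 44.2% by limma voom (all genes 46.6%, so the chosen genes were below them), 45.5% without the 3 libraries with the most white fat markers (all genes 43.5%) and 83.6% without the 3 libraries with many genes at 0 (all genes 65.0%). Leaving out 1 library at a time gave 55.5 to 78.6%. None of the 47 genes reversed its direction under the alternatives in which it was fitted, while the median of the cell cycle list moved from -1.17 to 0.01 without Control_6w replicate 3. The causes of these differences were not tested.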

Other observations

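In the separate fits, 19 genes moved by more than 2-fold with an unadjusted p under 0.05 in opposite directions, lower at 1 day and higher at 6 weeks. They included the MHC class II genes H2-Eb1 (log2 fold change -1.43 at 1 day and 1.35 at 6 weeks) and H2-Aa (-1.35 and 1.14), and Cx3cr1, a chemokine receptor of monocytes and macrophages (-1.84 and 1.33). The B cell marker list had medians of -2.42 and 0.69, and its summed level was 50.4 to 457 CPM in Control_1d, 55.2 to 94.0 CPM in IRR_1d, 62.1 to 852 CPM in Control_6w and 126 to 1178 CPM in IRR_6w, with Control_1d replicate 1, Control_6w replicate 3 and IRR_6w replicate 1 the highest of their groups. The part of B cells in the class II values was not tested. Genes of red blood cell precursors were among them too, with Slc4a1, the anion exchanger band 3, at -2.69 and 3.16, and Alas2, of haem synthesis, at -2.08 and 2.97. Summed erythroid markers were 2141 to 29400.4 CPM in Control_1d, 3110.2 to 10657 CPM in IRR_1d, 1943 to 5157 CPM in Control_6w and 3024 to 74192 CPM in IRR_6w, so the groups overlapped at both times, with IRR_6w replicate 1 the highest library. A pair of interferon-stimulated genes, Isg20 (-1.89 and 2.07) and Ube2l6 (-1.15 and 2.47), also changed sign. These genes were named after their values were seen.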
